A study of Homo sapiens with 28 samples.

Results

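CTCF sites that were listed in only 1 of 2 oxygen conditions were compared with the sites listed in both. The cells were T47D, an established line from a luminal breast tumour. The hypoxia CTCF list held 77334 peaks and the normoxia list 88248 on chromosomes 1 to 22 and X, together 165582 of the 349107 peaks in the 8 lists of the series. A peak was called shared when it overlapped a peak of the other list by at least 1 bp, and hypoxia-only or normoxia-only when it did not. By this rule 71952 hypoxia peaks and 72672 normoxia peaks were shared, 5382 were hypoxia-only (6.96% of their list) and 15576 were normoxia-only (17.7% of theirs).

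The data came from chromatin immunoprecipitation with sequencing. Each condition had 2 samples immunoprecipitated for CTCF, and the series also mapped acetylated histone H3 lysine 27 (H3K27ac) and the zinc finger and homeobox protein ZHX2 under both conditions. Normoxic cells were kept in a standard incubator and hypoxic cells in a hypoxia workstation, where they were also fixed, with no oxygen level or duration in the labels. No genetic change is labelled for the CTCF samples, although the growth text common to the series speaks of drug selection after lentiviral infection. There was 1 peak list per condition and no value per replicate, so no difference between the conditions had a replicate check and no test was made. The 95% Wilson intervals given with percentages cover counting error over peaks only. Fold enrichment and −log10 q are the authors' values for each peak. They were ranked only within a list, and where values of both lists stand side by side they are a description, since the lists may differ in depth and background. Read depth per library is not known here.

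CTCF is a DNA-binding protein with many zinc fingers that recognises a long, conserved motif. It stops cohesin as cohesin extrudes chromatin loops, and its sites lie at the borders of domains, at insulators such as that of the imprinted H19 and IGF2 locus, and at many promoters. Cells in hypoxia stabilise the HIF transcription factors, which bind the letters ACGTG within hypoxia response elements of genes such as PGK1. H3K27ac, a mark of active promoters and enhancers, lay at the ends of 8 of 8 luminal marker genes in each condition, at 2 of 6 basal or myoepithelial markers, not at KRT5, KRT14, TP63 or OXTR, and at 2 of 8 immune or stromal markers, with PTPRC, LYZ, VWF and PECAM1 among those without it. The CTCF gene itself held a shared peak at an end in both lists (fold 151.5 in hypoxia and 204.7 in normoxia), and inside it the normoxia list had 1 further normoxia-only peak with a fold of 3.76.

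The promoters below show the sequence under class members at annotated starts. RefSeq promoters of GRCh38.p14 were used, from 250 bases before an annotated start, which may lie inside the gene, to 30 after it, read on the gene's strand. The limit of 100 bases below was set after the data were seen. The hypoxia-only members with the highest fold, among windows with at least 100 bases under the peak, were SOX6 (chr11:16356517-16356796, minus strand, fold 8.05), PCDHB14 (chr5:141223093-141223372, plus strand, fold 8.00) and PWP1 (chr12:107685792-107686071, plus strand, fold 6.84). Capitals mark the CTCF core, here CCA, AG and GGC with 2 free bases between each, or the letters ACGTG, on either strand.
SOX6: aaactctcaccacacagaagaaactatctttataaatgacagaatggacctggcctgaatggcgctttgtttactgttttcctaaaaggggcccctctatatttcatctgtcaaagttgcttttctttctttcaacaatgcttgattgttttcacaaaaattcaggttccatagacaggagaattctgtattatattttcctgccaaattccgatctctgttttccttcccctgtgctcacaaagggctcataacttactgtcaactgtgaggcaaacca
PCDHB14: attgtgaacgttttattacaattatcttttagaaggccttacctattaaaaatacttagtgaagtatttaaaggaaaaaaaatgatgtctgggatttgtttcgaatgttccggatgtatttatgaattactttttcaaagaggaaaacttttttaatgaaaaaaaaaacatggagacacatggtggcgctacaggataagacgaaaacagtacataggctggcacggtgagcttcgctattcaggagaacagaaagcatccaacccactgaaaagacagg
PWP1: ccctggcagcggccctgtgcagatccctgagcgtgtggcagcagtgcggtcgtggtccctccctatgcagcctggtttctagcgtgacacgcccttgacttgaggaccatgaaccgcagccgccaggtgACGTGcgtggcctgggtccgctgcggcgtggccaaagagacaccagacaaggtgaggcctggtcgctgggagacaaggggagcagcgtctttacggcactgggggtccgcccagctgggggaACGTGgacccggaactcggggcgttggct

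The normoxia-only members chosen in the same way were PGK1 (chrX:78103998-78104277, plus strand, fold 20.97), ARHGEF18 (chr19:7394895-7395174, plus strand, fold 15.2) and NDST3 (chr4:118033072-118033351, plus strand, fold 14.3), with the same capitals.
PGK1: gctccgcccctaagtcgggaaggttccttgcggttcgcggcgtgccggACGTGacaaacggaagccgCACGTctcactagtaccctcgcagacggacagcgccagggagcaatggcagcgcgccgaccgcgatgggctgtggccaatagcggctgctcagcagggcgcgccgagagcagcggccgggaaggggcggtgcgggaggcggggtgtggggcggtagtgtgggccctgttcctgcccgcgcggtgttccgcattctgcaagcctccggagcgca
ARHGEF18: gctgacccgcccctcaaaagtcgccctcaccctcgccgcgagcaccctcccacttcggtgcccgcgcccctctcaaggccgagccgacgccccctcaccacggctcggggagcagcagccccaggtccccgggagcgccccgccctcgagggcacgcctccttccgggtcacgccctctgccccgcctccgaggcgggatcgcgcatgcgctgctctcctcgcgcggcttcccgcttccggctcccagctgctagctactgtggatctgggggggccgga
NDST3: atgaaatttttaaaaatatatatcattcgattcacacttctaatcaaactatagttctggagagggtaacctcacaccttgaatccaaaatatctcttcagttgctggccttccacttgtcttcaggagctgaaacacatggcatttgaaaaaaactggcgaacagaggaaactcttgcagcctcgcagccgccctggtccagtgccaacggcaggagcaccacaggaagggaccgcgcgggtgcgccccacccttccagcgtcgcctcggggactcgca

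For comparison, the shared peaks with the highest fold among promoters that hold the CTCF core were those of MELTF (chr3:197029788-197030067, minus strand, fold 629) and LRRC56 (chr11:518738-519017, plus strand, fold 617). MELTF has the core as CCAGCAGGGGGC, and LRRC56 has CCAGGAGCCGGC and, on the opposite strand, GCCCCCTCCTGG.
MELTF: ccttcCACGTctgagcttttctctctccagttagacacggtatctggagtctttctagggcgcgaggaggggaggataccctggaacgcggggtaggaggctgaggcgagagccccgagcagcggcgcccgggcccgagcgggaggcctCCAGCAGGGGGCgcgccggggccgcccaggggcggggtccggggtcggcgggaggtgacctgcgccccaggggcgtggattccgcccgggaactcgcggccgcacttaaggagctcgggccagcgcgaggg
LRRC56: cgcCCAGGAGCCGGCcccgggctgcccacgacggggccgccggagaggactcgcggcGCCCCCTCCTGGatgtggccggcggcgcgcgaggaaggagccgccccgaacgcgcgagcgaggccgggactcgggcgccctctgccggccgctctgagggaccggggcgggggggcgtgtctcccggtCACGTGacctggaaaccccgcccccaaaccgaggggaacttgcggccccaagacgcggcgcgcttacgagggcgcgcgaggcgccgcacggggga

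Of the 6 condition-only windows printed, 0 hold the CTCF core, and PWP1 and PGK1 hold ACGTG at 2 positions each. Over all promoter windows, counted below at a somewhat greater length, the core occurred in 2.52% and ACGTG in 23.1%. With so few windows printed, these counts cannot set the condition-only promoters apart from promoters in general. SOX6 and PCDHB14 are rich in A and T, with 39.3% and 35% G or C, against 70.4% in PGK1 and 74.6% in ARHGEF18. Shared promoters were picked for having the core, so its presence there is no result.

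Hypoxia-only and normoxia-only peaks were narrow and weak beside shared ones. The median hypoxia-only peak was 246 bp wide with a fold of 4.28, against 546 bp and 22.96 for shared peaks of the same list, and the highest hypoxia-only fold was 13.9. For normoxia-only peaks the medians were 257 bp and 5.71, against 544 bp and 30.4 for shared peaks of that list, and the highest fold was 21.8. The classes held a smaller part of the covered sequence than of the peak number, 2.90% in hypoxia and 8.46% in normoxia.

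Sharing followed the authors' score in both lists, but in each decile from 1 to 5 a smaller part of the normoxia list was shared. From the lowest score decile of the hypoxia list to decile 4, 56.0%, 82.0%, 93.97% and 98.8% of peaks were shared. The corresponding deciles of the normoxia list had 34.0%, 43.3%, 63.0% and 85.6%. In decile 5 the shares were 99.7% in hypoxia and 97.7% in normoxia, and in decile 6 only 7 hypoxia and 4 normoxia peaks were unshared. From decile 7 upward all peaks were shared in both lists. When the normoxia list was reduced by score to the 77334 peaks of the hypoxia list, there were 8498 hypoxia-only and 8406 normoxia-only peaks. The ratio of normoxia-only to hypoxia-only peaks, 2.89 with the full lists, was then 0.989. Equal lists whose peaks overlap mostly 1 to 1 must give nearly equal classes, so this value carries no information on the conditions, and the difference in class size cannot be told apart from the difference in list length.

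The spacing of the classes differed most. About as many hypoxia-only peaks lay close to a normoxia peak as far from one: 2702 of 5382 had a normoxia peak within 1 kb (50.2%, 48.9 to 51.5%), and 36.4% within 500 bp. Among normoxia-only peaks 1967 of 15576 had a hypoxia peak within 1 kb (12.6%, 12.1 to 13.2%) and 7.12% within 500 bp. The median gap to the nearest peak of the other list was 988.5 bp for hypoxia-only and 8176.5 bp for normoxia-only peaks. Within their own list, hypoxia-only peaks had a median gap of 902 bp to the next peak against 7518 bp for shared peaks, while normoxia-only peaks (6547 bp) and shared normoxia peaks (6439 bp) were spaced alike.

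**Figure D1:**
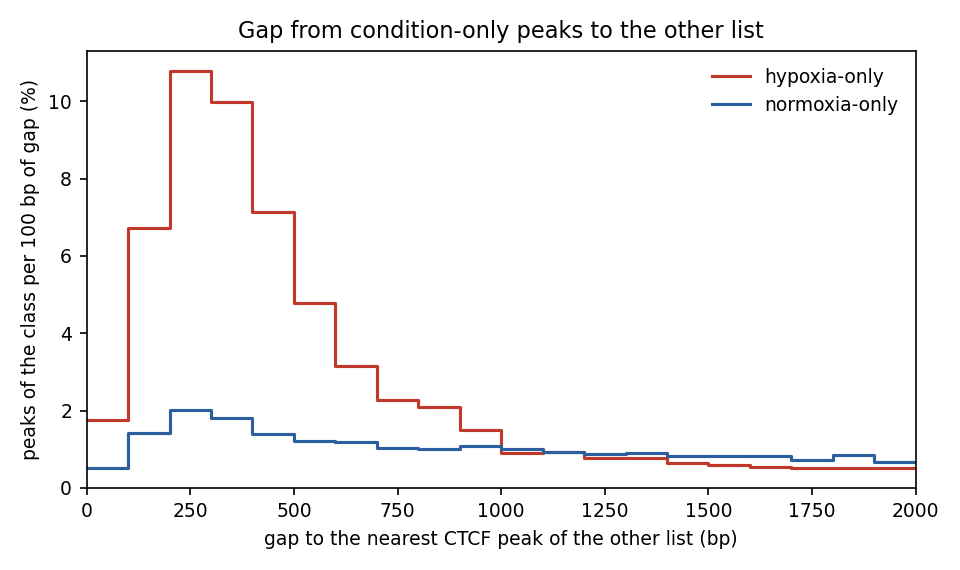
Percent of each condition-only class (y axis) by the gap in bp to the nearest CTCF peak of the other list (x axis, steps of 100 bp up to 2000 bp). The hypoxia-only class is densest between 200 and 400 bp, at 10.8% and 9.98% per step, while the normoxia-only class stays low along the whole axis.

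The close hypoxia-only peaks sat beside strong, shared sites. The nearest normoxia peak of those 2702 had a median fold of 117, a median width of 833 bp (452 bp over the normoxia list) and a score above 85.9% of its list, and 94.97% of these neighbours were shared (94.1 to 95.7%). The neighbour lay in the upper 50% of the normoxia list by score in 2167 cases (80.2%). Normoxia peaks lay within 1 kb on both sides of 296 of them (10.95%). The hypoxia peaks nearest to the 1967 close normoxia-only peaks had a median fold of 10.8 and a score above 39.1% of their list, and 40.7% lay in the upper 50%. A hypoxia-only peak close to a normoxia peak had a median fold of 3.94, one farther away 4.90, and the same values for normoxia-only peaks were 5.04 and 5.78.

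GNB1, HSPD1 and ZNF143 are examples of close hypoxia-only peaks at gene ends. They are not typical, since the best normoxia folds at these ends lay far below the median of 117 for neighbours. At GNB1, which encodes a G protein beta subunit, the hypoxia-only peak (chromosome 1, 1890776 to 1890978, fold 9.56) lay 334 bp from a normoxia peak. The best normoxia peak at its ends had a fold of 7.78. At HSPD1 and HSPE1, divergent genes of the mitochondrial chaperonin and its co-chaperonin, the peak (chromosome 2, 197500904 to 197501324, fold 9.09) lay 416 bp from one, and the best normoxia peak at these ends had a fold of 3.58. At ZNF143, a zinc finger factor of promoters and loops, the peak (fold 5.07) lay 169 bp from a normoxia peak, and the best normoxia peak there had a fold of 6.01.

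Among shared peaks the strongest were wider in hypoxia and those of deciles 2 to 5 by normoxia fold wider in normoxia, while the weakest were alike. Of the shared sites 69178 formed pairs of 1 hypoxia and 1 normoxia peak, whose summits lay a median of 10 bp apart, with 94.0% within 50 bp. Over all pairs the median widths were 535 bp in hypoxia and 534.5 bp in normoxia. In the strongest decile by normoxia fold the medians were 1344 bp in hypoxia and 1033 bp in normoxia, and 84.4% of pairs were wider in hypoxia. In decile 3 they were 314 and 350 bp, and 25.7% were wider in hypoxia. In decile 1, the weakest, they were 271 and 270 bp, and 48.95% were wider in hypoxia. Width depends on depth and background in each list, which could not be examined here. Hypoxia peaks that overlapped 2 or more normoxia peaks numbered 1391 (1328 with 2 and 63 with 3 or more), or 1.93% of shared hypoxia peaks, and 0.991% of shared normoxia peaks overlapped 2 or more hypoxia peaks.

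**Figure D2:**
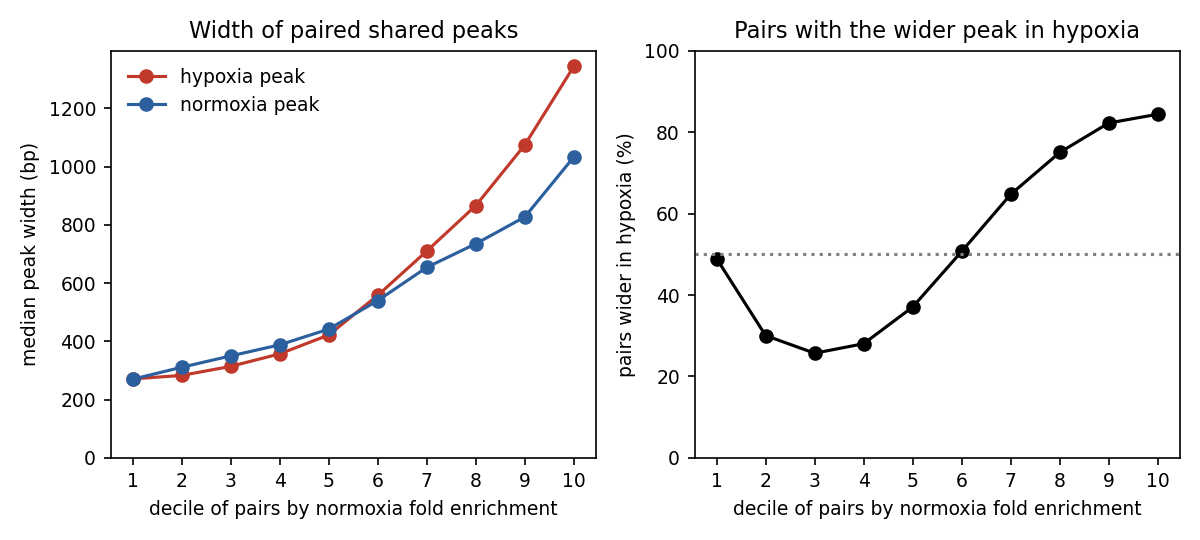
Left, median width in bp of the hypoxia and the normoxia peak of 69178 shared pairs, in deciles of the pairs by normoxia fold (1 lowest, 10 highest). Right, percent of pairs whose hypoxia peak is the wider, with 50% dotted; it is 25.7% in decile 3 and 84.4% in decile 10.

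H19 and IGF2 show hypoxia peaks that span 2 or more normoxia peaks, and H19 also hypoxia-only peaks beside such a peak. At H19, the imprinted non-coding RNA gene whose upstream CTCF sites insulate IGF2, a hypoxia peak of 3458 bp (chromosome 11, 1998100 to 2001557, fold 124.5) spanned 2 normoxia peaks of 1191 and 1522 bp with folds of 90.9 and 94.5. Hypoxia-only peaks of 328 and 1305 bp lay on the same side of it, with folds of 2.53 and 6.90. At the end of IGF2, a fetal growth factor, a shared hypoxia peak (2150077 to 2153011, fold 155) was 2935 bp wide. It overlapped a normoxia peak of 728 bp (2150155 to 2150882, fold 43.6) and also the next one, 395 bp further on. The folds of 155 and 43.6 are therefore not those of a matched pair.

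Normoxia-only peaks formed longer chains than hypoxia-only peaks. Counting consecutive peaks of a list with no shared peak between them, 5627 normoxia-only peaks (36.1%) were in runs of 2 or more and 671 hypoxia-only peaks (12.5%). Normoxia-only peaks are also a larger share of their list, and the part of this in the runs was not tested. The longest normoxia-only run had 15 peaks (chromosome 1, 228623485 to 228648370). It began within the array of 5S ribosomal RNA genes and ended past it, and RHOU overlaps the stretch. Over the 17 annotated genes of that array (228610266 to 228646158) the normoxia list had 16 peaks, 15 of them normoxia-only with folds of 2.20 to 6.20, and the hypoxia list had 1. These 15 overlap in part with the 15 of the run but are not the same set. The 5S genes are near-identical copies, so the placing of reads among them is uncertain. Runs of 14 and 8 lay on chromosome 18 (17436665 to 18378620 and 16295749 to 16715903) with no protein-coding gene. The sequence of these stretches was not examined, so how surely reads were placed there is not known.

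The longest hypoxia-only run had 5 peaks inside EIF3A, the gene of a large subunit of translation initiation factor eIF3. Their folds ran from 2.53 to 4.14, and they lay 2394 to 22467 bp from the nearest normoxia peak. The 2 shared peaks of EIF3A, at its ends, had folds of 4.57 and 4.85 in hypoxia and 5.79 and 4.83 in normoxia. Other genes with 5 hypoxia-only peaks between their ends were CACNA1C (727 kb, 31 hypoxia and 37 normoxia peaks, 11 of the latter normoxia-only), PDE4D, SEC14L1 and SUGCT. EIF3A is 47.1 kb long, and apart from it these are genes of 128 to 1553 kb.

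The genes with the most normoxia-only peaks between their ends were GSE1 (28 of 98 normoxia peaks), SHANK2 (17 of 43), GRIK4 (13 of 34), AFF3 (12 of 22) and KAZN (12 of 47). AFF3, a nuclear factor of the AF4 family, had 10 hypoxia peaks and 0 hypoxia-only ones. Within ESR1, the oestrogen receptor gene that defines luminal tumours, 6 normoxia-only peaks with folds of 4.95 to 11.2 lay 7659 to 128986 bp from the nearest hypoxia peak, and all 11 hypoxia peaks were shared. Within GATA3, a luminal transcription factor, the lists had 1 hypoxia-only peak (fold 3.55) and 1 normoxia-only peak (fold 3.75).

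By chromosome, normoxia-only peaks made up from 14.1% of the normoxia list on X (12.8 to 15.4%) to 21.5% on chromosome 21 (19.3 to 23.8%) and 21.1% on chromosome 20. Hypoxia-only peaks made up from 4.97% of the hypoxia list on chromosome 21 to 9.05% on chromosome 19 (8.07 to 10.1%). In windows of 1 Mb the median number was 4 normoxia-only and 1 hypoxia-only peak. The fullest normoxia-only window lay on chromosome 20 between 62000001 and 63000000, with 43 of 142 peaks around TAF4, LAMA5 and COL9A3.

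Over all scores, the 3 classes differed in how often they lay at genes and on H3K27ac. Within 1 kb of either annotated end of a protein-coding gene lay 20.6% of hypoxia-only peaks (19.5 to 21.7%), 11.9% of normoxia-only peaks (11.4 to 12.4%), and 17.2% and 17.0% of shared peaks in the hypoxia and normoxia lists. The share on H3K27ac of the same condition was 33.8% (32.5 to 35.1%), 23.4% (22.7 to 24.1%), 30.3% and 28.8%. Between gene ends the classes were alike, at 53.0% of hypoxia-only, 54.4% of normoxia-only and 54.8% of shared hypoxia peaks.

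Closeness to the other list split the classes further. Normoxia-only peaks within 1 kb of a hypoxia peak lay at gene ends in 29.3% (27.4 to 31.4%) and on H3K27ac in 49.8% (47.6 to 52.0%), and the 13609 farther ones in 9.32% (8.85 to 9.82%) and 19.6% (18.9 to 20.2%). Hypoxia-only peaks went the other way for H3K27ac: 28.1% (26.4 to 29.8%) when close and 39.6% (37.7 to 41.4%) when farther. Their gene-end shares were 20.4% and 20.7%.

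**Figure D3:**
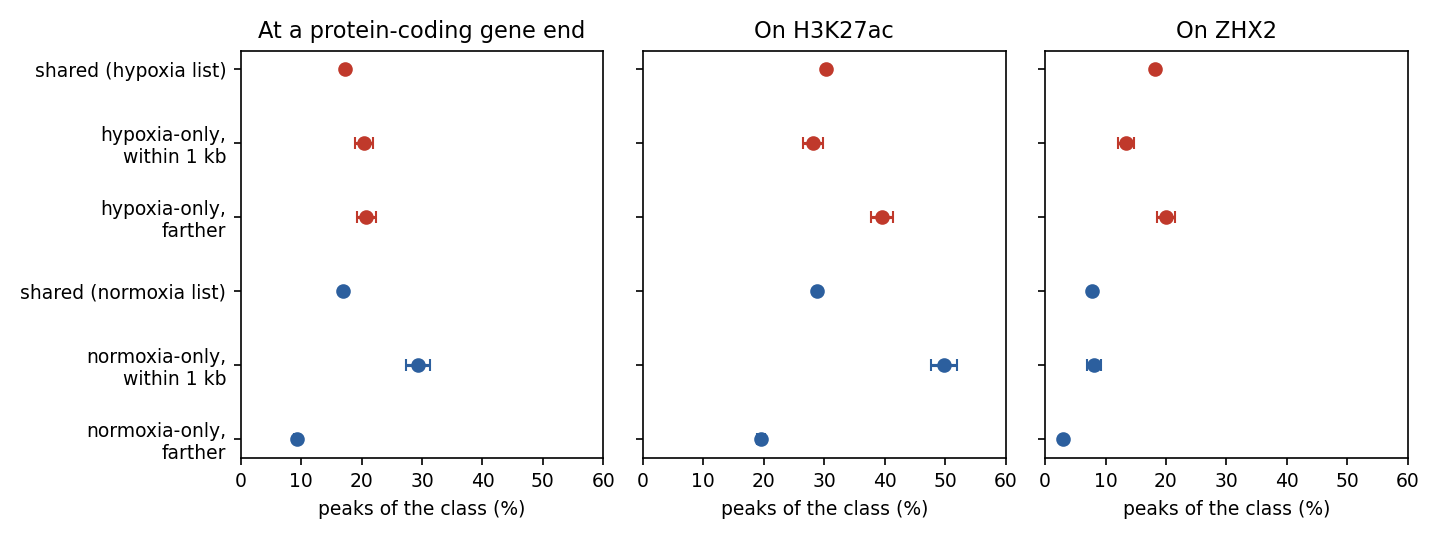
Percent of each class (x axis) within 1 kb of a protein-coding gene end, on an H3K27ac peak and on a ZHX2 peak of the same condition, with 95% Wilson intervals. Hypoxia list classes are red and normoxia list classes blue; normoxia-only peaks far from a hypoxia peak have the lowest value in each panel, at 9.32%, 19.6% and 2.88%.

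The order against shared peaks was not the same at equal score. Gene ends held a smaller share of hypoxia-only than shared hypoxia peaks in each −log10 q range from 5 to 160, unlike over all scores. The shares were 25.9% and 51.9% at 5 to 10, 24.1% and 34.3% at 10 to 20, and 12.1% and 20.9% at 20 to 40. At 40 to 80 (13.1% and 17.8%) and 80 to 160 (8.82% of 34 and 15.6%) the hypoxia-only intervals included the shared value. At 5 to 10 the 202 hypoxia-only peaks farther than 1 kb from a normoxia peak had 52.97%. Among shared hypoxia peaks the share on H3K27ac was 77.8% at a −log10 q of 5 to 10 and 25.5% at 80 to 160. Among hypoxia peaks with a −log10 q of 20 to 40, H3K27ac lay under 26.2% of hypoxia-only (24.1 to 28.5%) and 32.95% of shared peaks (32.0 to 33.9%), the reverse of the order over all scores. At 40 to 80 the order was that over all scores again, with 45.6% of 206 hypoxia-only peaks (39.0 to 52.5%) and 28.7% of shared peaks, and at 80 to 160 it lay under 28 of 34 hypoxia-only peaks (82.4%, 66.5 to 91.7%). In the normoxia list at 20 to 40 it lay under 18.7% of normoxia-only (17.8 to 19.6%) and 36.5% of shared peaks (35.3 to 37.6%), and gene ends held 8.81% and 24.6%, while at 5 to 10 it lay under 65.7% of 350 normoxia-only (60.6 to 70.5%) and 57.7% of 369 shared peaks (52.6 to 62.7%). At a −log10 q of 5 to 10, H3K27ac lay under 36.0% of all hypoxia-only peaks, but the 202 farther than 1 kb from a normoxia peak had H3K27ac under 78.7% (72.6 to 83.8%) and the 441 shared peaks under 77.8% (73.7 to 81.4%).

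Most H3K27ac under the condition-only peaks was present in both conditions. Of hypoxia-only peaks 28.9% lay on H3K27ac of both lists and 4.89% (4.34 to 5.495%) on H3K27ac listed in hypoxia alone, against 2.57% of shared hypoxia peaks for the latter. Of normoxia-only peaks 21.8% lay on H3K27ac of both lists and 1.57% on H3K27ac listed in normoxia alone. The hypoxia-only peak with the highest fold anywhere (chromosome 6, 133130967 to 133131297, fold 13.9) lay outside protein-coding genes on H3K27ac of the hypoxia list alone, 53264 bp from the nearest normoxia peak. The normoxia-only peak with the highest fold lay inside IRAK2, a kinase of interleukin-1 receptor signalling (chromosome 3, 10192846 to 10193265, fold 21.8), without H3K27ac in either list. ZHX2 of the same condition lay on 16.6% of hypoxia-only and 18.2% of shared hypoxia peaks, and on 3.53% of normoxia-only and 7.72% of shared normoxia peaks; the ZHX2 lists differ in size, so these percentages are not comparable across conditions.

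Around annotated starts hypoxia-only summits were skewed to the transcribed side. Starts on chromosome 8 were not analysed here. Of hypoxia-only summits 6.67% lay in the first 250 bp after the nearest start and 3.52% in the 250 bp before it. Shared summits of the hypoxia list were level, at 3.52% and 3.57%, and normoxia-only summits had 2.42% and 1.93%. Within 1 kb of a start lay 17.0% of hypoxia-only (16.0 to 18.1%) and 9.41% of normoxia-only peaks (8.95 to 9.89%).

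**Figure D4:**
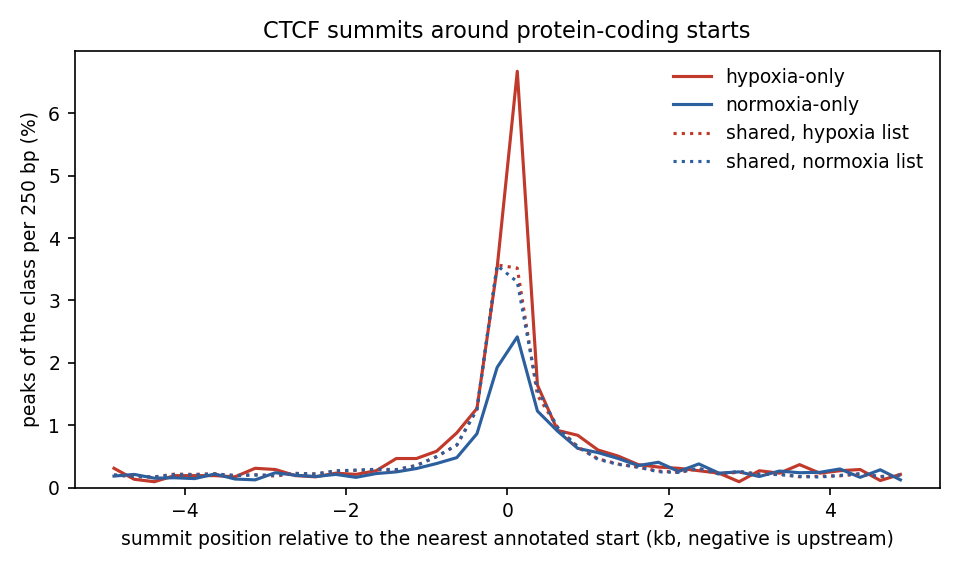
Percent of the summits of each class per 250 bp (y axis) by distance in kb from the nearest annotated protein-coding start (x axis, negative is upstream). The hypoxia-only line peaks just after the start at 6.67%, above both shared lines, and the normoxia-only line is lowest, at 2.42%.

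For the CTCF core and for ACGTG, the share of promoters with a shared peak lay within the intervals of both condition-only classes. Over all 22132 promoter windows of 300 bases the CTCF core occurred in 2.52%, in 1.39% of those without a CTCF peak, in 3.92% of those with a shared peak, in 2.78% (1.74 to 4.40%) of the 612 with a hypoxia-only and no shared peak, and in 2.63% (1.72 to 3.98%) of the 800 with a normoxia-only and no shared peak. ACGTG occurred in 23.1% of all windows, and in 20.6%, 25.6%, 27.3% (23.9 to 31.0%) and 26.6% (23.7 to 29.8%) of these sets. A looser core, CC, AG and GGC with 3 and 2 free bases between them, which includes the core, occurred in 12.4% of all windows, in 18.5% with a shared peak, in 11.9% (9.59 to 14.7%) with a hypoxia-only and in 15.9% (13.5 to 18.6%) with a normoxia-only peak. Windows without a peak were also poorer in G and C (median 56% against 64% to 68.3%), so base composition moves with these percentages, and its part in them was not tested. Where a summit fell in a window, the core was there for 9 of 287 hypoxia-only summits (3.14%, 1.66 to 5.85%), 16 of 378 normoxia-only summits (4.23%, 2.62 to 6.76%) and 231 of 3219 shared hypoxia summits (7.18%, 6.33 to 8.12%). It lay within 50 bp of the summit in 3, 11 and 184 of these.

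At the level of genes, CTCF lay within 1 kb of an end of 11247 of 19839 protein-coding genes in both lists (56.7%), of 566 in hypoxia alone (2.85%) and of 1029 in normoxia alone (5.19%). A gene counted in 1 list alone may still hold a shared peak, where the overlapping peak of the other list stayed outside the 1 kb. This was so at OR2M4 (fold 87.6) and OR2T1 (7.47) in hypoxia, and at ZNF684 (66.7) in normoxia. A hypoxia-only peak lay at 1270 genes (6.4%) and a normoxia-only peak at 2007 (10.1%). With the normoxia list reduced to the length of the hypoxia list the order turned, to 1442 genes in hypoxia alone (7.27%) and 450 in normoxia alone (2.27%). Counts of genes in 1 list alone therefore depend on list length. Those below are for the full lists unless equal length is named, and equal-length counts are not given for every list. H3K27ac lay at the ends of 86.3% of genes with CTCF in both lists, of 86.0% (82.9 to 88.7%) with CTCF in hypoxia alone and of 69.1% (66.2 to 71.8%) with CTCF in normoxia alone, in each case by the hypoxia H3K27ac list. The median best fold was 4.09 at genes of the hypoxia list alone and 5.35 at genes of the normoxia list alone.

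Genes of the unfolded protein response, which handles misfolded protein in the endoplasmic reticulum, had CTCF in hypoxia alone at 4 of 26 (15.4%, against 2.85% of all genes) and in normoxia alone at 0. This list was chosen with XBP1 and EIF2AK3 already known from these data, so its count is not independent evidence. The 4 were XBP1, a transcription factor of the response (chromosome 22, 28800288 to 28800538, fold 9.96, 134 bp after the nearest start), EIF2AK3, the sensor kinase PERK (chromosome 2, 88627919 to 88628249, fold 8.69), DNAJB11, a co-chaperone (fold 3.28), and HSP90B1, a chaperone of the endoplasmic reticulum (fold 2.58). ATF4, a transcription factor downstream of PERK, and CALR, a lectin chaperone, held hypoxia-only peaks with folds of 3.12 and 3.68 beside shared CTCF. All 4 genes had H3K27ac in both lists, with best folds at XBP1 of 43.5 in hypoxia and 49.3 in normoxia. With lists of equal length the count was 8 of 26 (30.8%, against 7.27%), adding DNAJB9, DNAJC3, EDEM1 and PPP1R15A.

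Mitochondrial chaperones and proteases had a hypoxia-only peak at 6 of 17 (35.3%, against 6.4%), and this list too was chosen with HSPD1 and HSPE1 known. These 2 share 1 peak. The others were CLPX and CLPP, subunits of the mitochondrial ClpXP protease (folds 5.20 and 3.24, hypoxia alone), PHB2, a prohibitin (4.68), and SPG7, an inner-membrane protease (3.33). At a −log10 q of at least 10 CLPP dropped out. HSPA9, the mitochondrial HSP70, held CTCF in normoxia alone (fold 4.81). With lists of equal length HSPA9 was no longer listed so, and HSPD1 and HSPE1 joined CLPX and CLPP in hypoxia alone. SERBP1, an mRNA-binding protein, and TUBA1B, an alpha-tubulin, were among the other genes with high hypoxia-only folds, at 8.56 and 8.37. At SERBP1 the normoxia list had an unshared peak of its own 449 bp away (fold 5.78), and TUBA1B also held a shared peak with best folds of 224 and 284.

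Among genes that hypoxia induces, a hypoxia-only peak lay at 7 of 35 (20%, against 6.4% of all genes) and a normoxia-only peak at 4 (11.4%, near the 10.1% of all genes). PFKFB4, a regulator of glycolysis (fold 5.91), and MXI1, an antagonist of MYC (fold 4.84, summit at -8 bp from the nearest start), held CTCF in hypoxia alone, and TMEM45A (11.3), EGLN3, an oxygen-sensing prolyl hydroxylase (4.74), and KDM5B, a histone demethylase (3.71), in normoxia alone. At MXI1 the best H3K27ac fold was 22.7 in hypoxia and 4.01 in normoxia, and a ZHX2 peak was listed in hypoxia alone (fold 7.10). Between their ends MXI1 and STC2, a secreted glycoprotein, had 3 hypoxia-only peaks each and 0 normoxia-only ones. With equal lists EGLN3 and KDM5B left the normoxia-alone set and CA12 and HK2 joined the hypoxia-alone set.

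Of 18 glycolytic genes PGK1, the phosphoglycerate kinase, held CTCF in 1 list alone, normoxia (5.56%, near the 5.19% of all genes). The list was chosen with it known. Its normoxia-only peak (chromosome X, 78103766 to 78104366) was 601 bp wide with its summit at -101 bp from the start, and the nearest hypoxia CTCF peak lay 10998 bp away. The other 2 normoxia CTCF peaks of PGK1 were shared, with folds of 19.8 and 23.6, and the matching hypoxia peaks had 15.4 and 8.58. H3K27ac lay at the gene in both lists, with best folds of 19.7 in hypoxia and 13.1 in normoxia. Of 13 hypoxia signalling genes 2 held CTCF in normoxia alone (15.4%, against 5.19%): ARNT2, a partner of HIF subunits (4.95), and EGLN3. ARNT held a normoxia-only peak (3.14) beside shared ones, and 3 of the 13 held such a peak (23.1%, against 10.1%). With equal lists 0 of the 13 held CTCF in normoxia alone, and ZHX3 held it in hypoxia alone (7.69%, against 7.27%).

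Luminal genes had hypoxia-only peaks at 4 of 22 (18.2%, against 6.4%): XBP1, TFAP2C (fold 4.60), TFAP2A (3.86) and KRT19 (2.47). TFAP2A and TFAP2C are AP-2 transcription factors of luminal epithelium. Normoxia-only peaks lay at 3 of 22 (13.6%, against 10.1%): TFF1, a secreted peptide induced by oestrogen (7.07), TFF3 (4.56) and CDH1, the E-cadherin gene (4.25). Basal genes had 0 of 11 hypoxia-only and 3 of 11 normoxia-only peaks (27.3%, against 10.1%), at KRT14 (8.60), KRT17 (7.73) and CDH3, the P-cadherin gene (4.40). KRT14 and KRT17 are basal keratins; they held CTCF in normoxia alone under both list lengths, and KRT14 had no H3K27ac in either list.

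**Figure D5:**
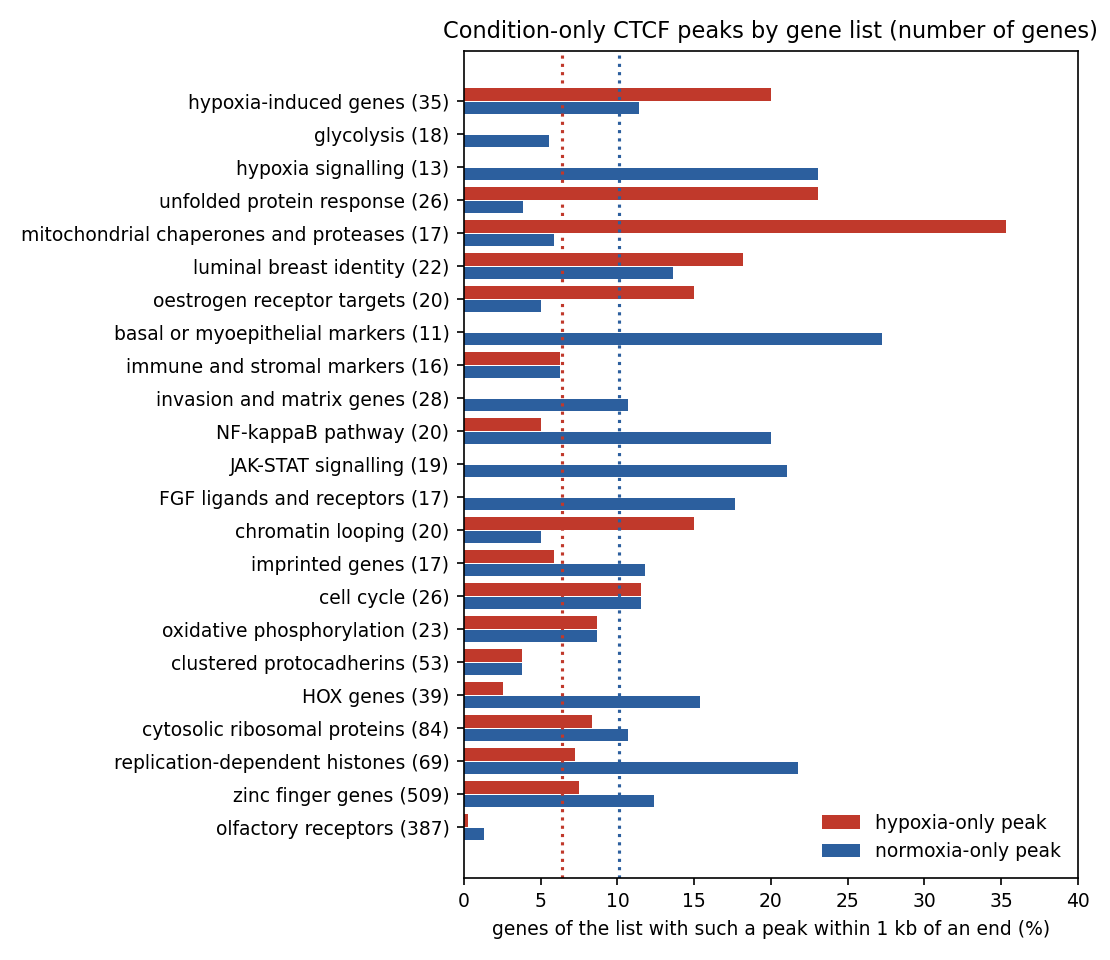
Percent of the genes of each list (x axis) with a hypoxia-only peak (red) or a normoxia-only peak (blue) within 1 kb of an end, with the number of genes in brackets. Dotted lines mark all protein-coding genes, at 6.4% and 10.1%; mitochondrial chaperones reach 35.3% for hypoxia-only peaks and basal markers 27.3% for normoxia-only peaks.

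Signalling genes with normoxia-only peaks were led by STAT3, a transcription factor of cytokine signalling (chromosome 17, 42388702 to 42389126, fold 14.0), where shared peaks with best folds of 30.9 in hypoxia and 41.4 in normoxia also lay. Of 19 JAK-STAT genes 4 held a normoxia-only peak (21.1%, against 10.1% of all genes), at STAT3, TYK2 (4.48) and the neighbours STAT5A and STAT5B, which share 1 peak (6.86). Of 17 genes of FGF ligands and receptors 3 did (17.6%), at FGF3 (13.2), FGF8 (8.45) and FGF4 (4.29), and FGF3 and FGF4 held no hypoxia peak. Both lists were chosen with STAT3 and FGF3 known. Of 20 NF-kappaB genes 4 did (20%), among them CHUK (5.40) and NFKBIZ (5.18), and NFKBIB (4.02) held CTCF in hypoxia alone. With equal lists FGF3, STAT5B and NFKBIB stayed in their sets, FGF4, TYK2 and NFKBIZ left theirs, and STAT2 had CTCF in hypoxia alone.

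Of 53 clustered protocadherins, neuronal adhesion genes whose promoter choice depends on CTCF, 51 held CTCF in both lists. PCDHB14 held it in hypoxia alone (1.89%, against 2.85% of all genes, fold 8.00, without H3K27ac). Of 39 HOX genes 3 (7.69%, against 5.19% of all genes), HOXA4 (4.43), HOXB9 (4.30) and HOXC12 (4.26), held it in normoxia alone. With equal lists 0 of the 39 did, and HOXB6 held it in hypoxia alone (2.56%, against 7.27%). Replication-dependent histone genes had 8 of 69 in normoxia alone (11.6%, against 5.19%) and 2 in hypoxia alone (2.90%, against 2.85%), but neighbours share peaks (H2AC17 with H2BC17, H2AC6 with H2BC4). With lists of equal length the counts were 3 in normoxia alone (4.35%, against 2.27%) and 7 in hypoxia alone (10.1%, against 7.27%). The order over all genes turned in the same way. The 84 cytosolic ribosomal protein genes had 3 in each list alone (3.57%, against 2.85% for hypoxia and 5.19% for normoxia), among them RPS7 (4.72) and RPS15A (3.41) in hypoxia and RPL13A (6.13) and RPL14 (5.21) in normoxia. With equal lists they had 6 in hypoxia alone (7.14%, against 7.27%) and 1 in normoxia alone (1.19%, against 2.27%). Zinc finger genes had 23 of 509 in hypoxia alone (4.52%) and 39 in normoxia alone (7.66%), and with equal lists 54 (10.6%, against 7.27%) and 15 (2.95%, against 2.27%). Olfactory receptors had 2 and 5 of 387 (0.517% and 1.29%), and the 2 in hypoxia alone, OR2M4 and OR2T1, held shared peaks. Of 20 chromatin looping genes SMC3, a cohesin subunit, held CTCF in hypoxia alone (5%, against 2.85%, fold 4.28). RAD21, another subunit, held it in both (best folds 9.41 in hypoxia and 20.1 in normoxia). Of 26 cell cycle genes, 17 imprinted genes and 16 immune or stromal markers 0 held CTCF in 1 list alone. Over all genes the shares were 2.85% in hypoxia alone and 5.19% in normoxia alone. Of 23 genes of oxidative phosphorylation ATP5F1A (4.66) held CTCF in hypoxia alone (4.35%) and UQCRFS1 (7.26) and COXFA4 (4.44) in normoxia alone (8.70%). Of 28 invasion and matrix genes ITGB1 (4.55) held it in normoxia alone (3.57%, against 5.19%). Of 20 oestrogen receptor targets XBP1 held it in hypoxia alone (5%, against 2.85%). With equal lists MKI67 of the cell cycle genes held CTCF in hypoxia alone (3.85%, against 7.27% of all genes). COX5A joined ATP5F1A there (8.70%), CA12 joined XBP1 (10%), and ITGB1 left the normoxia-alone set.

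Ranked by fold, the first 15 normoxia-only peaks at gene ends included those of further genes. PLPP2 (15.1), NDST3 (14.3), STX8 (13.7), PIK3AP1 (13.4), SLX1A (12.7, a gene with a near-identical copy, so uncertain), TNFRSF18 (12.6), SCX (12.5) and CBX6 (12.4) lay at genes with CTCF in both lists. SH2D6 (12.9), TMEM26 (12.6), TM4SF1 (12.5) and the overlapping genes USP32 and CHCT1 (12.96) held no hypoxia CTCF at an end. Of the corresponding hypoxia-only peaks, TFIP11 (8.69), DPP6 (8.25), C3orf22 (7.69), ZNF563 (7.47) and FHDC1 (7.35) were at genes without normoxia CTCF, and DDX52 (8.66), ANKFY1 (8.36) and SLC8A2 (7.35) at genes with it. DPP6, ZNF563 and FHDC1 had no H3K27ac at an end in either list. The shared peaks at gene ends reached far higher folds, led by SCNN1G (677) and RAPGEF1 (656) in hypoxia and LTBP2 (1081) and COMTD1 (970) in normoxia.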

How the data were processed

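The authors mapped CTCF in 2 samples per condition and deposited 1 peak list for each. The submitters' processing notes name MACS2, Bowtie2 and cutadapt, and GRCh38 (hg38) as the build. Versions, read depth, pooling of the samples and use of the inputs are not given in the sources used here. In the deposited lists the score of a peak is 10 times its −log10 q with decimals dropped, and fold enrichment is a ratio over background; the −log10 q values are the authors' too. H3K27ac and ZHX2 lists were used for overlap.

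Peaks on chromosomes 1 to 22 and X were classed by an overlap of 1 bp with Python 3.11.15, numpy 2.4.6 and pandas 2.3.3. Gaps are bases between peak borders. Gene positions and promoters are from RefSeq (GRCh38.p14). Promoter windows were found for 15812 of 19839 protein-coding genes, and starts on chromosome 8 were not analysed here. The 23 gene lists and the members were chosen with earlier results of these data known. MIR210HG, H19, KCNQ1OT1 and MEG3 had no match among protein-coding genes.

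Named genes were the 15 strongest condition-only peaks of each class at gene ends by fold, the 5 highest shared peaks per list, the 5 genes per class with most condition-only peaks, in each gene list at most 4 members by fold for each class, members with CTCF in 1 list alone, and CTCF, RAD21, ZHX2, HIF1A, PGK1, XBP1, EIF2AK3, ESR1, GATA3, H19 and IGF2. Further list members and the windows for printed promoters were chosen after their values were seen. Alternatives covered the overlap, the score threshold, lists of equal length, all contigs, a 3 kb gene window and every annotated gene type. The functions for gaps, overlaps and motif search were first run on simulated intervals or short sequences with known answers. The later steps were not run on simulated data.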

Additional observations from a re-analysis of the deposited data

Results flagged for a closer look

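Peaks outside chromosomes 1 to 22 and X entered no comparison. The hypoxia CTCF list held 16 of them and the normoxia list 25. Both numbers exceed the 3 that a count of 0 allows, and nothing further was examined there.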

How the results depend on the processing

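With lists of equal length, 89.0% of hypoxia and 89.1% of normoxia peaks were shared, 1442 and 450 genes had CTCF in hypoxia or normoxia alone, gene-end shares of hypoxia-only and normoxia-only peaks were 27.3% and 8.17%, H3K27ac shares 42.2% and 18.2%, and same-list gaps 2119.5 and 8256.5 bp. With summits within 250 bp as the rule, the shared percentages were 91.2% and 79.96%, gene-end shares 28.7% and 15.3%, H3K27ac shares 43.3% and 27.1%, and gaps 661.5 and 5362 bp. With no other-list peak within 1 kb as the rule, they were 96.5% and 84.6% shared, 9.32% of normoxia-only peaks at gene ends, 39.6% and 19.6% on H3K27ac, and gaps of 10269 and 8234 bp. The shorter same-list gap of hypoxia-only peaks was therefore lost when close peaks were left out, as that rule requires. At a −log10 q of at least 10, 94.1% and 82.6% were shared, gene-end shares were 19.5% and 11.2%, 22.4% of normoxia-only peaks lay on H3K27ac, and the hypoxia-only gap was 1924 bp. An overlap of 50% gave 92.8% of hypoxia peaks shared and 21.7% of hypoxia-only peaks at gene ends. A 3 kb window gave 29.3% and 19.9% at gene ends, and all annotated genes gave 1129 and 2093 in hypoxia or normoxia alone. The other 21 values stayed within their interval, or within 1.5 times for counts. In every setting run, gene-end and H3K27ac shares were higher for hypoxia-only than for normoxia-only peaks. None of these settings set peaks of like score side by side. At a −log10 q of 5 to 10 the order was turned over all condition-only peaks. Gene ends held 25.9% of hypoxia-only and 40.9% of normoxia-only peaks there, and H3K27ac lay under 36.0% and 65.7%. In each higher range up to 160 both shares were again higher for hypoxia-only peaks. Among peaks farther than 1 kb from the other list the order at 5 to 10 was not turned. Gene ends held 53.0% of such hypoxia-only and 39.1% of such normoxia-only peaks, and H3K27ac lay under 78.7% and 66.8%. No paired analysis was possible because each condition has 1 list with no values per replicate, and no replicate could be left out. Depth is unknown, so a missing peak may be a site under the threshold rather than one without CTCF.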
